A study of Mus musculus with 6 samples.

Results

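The respiratory chain and the ATP synthase of mitochondria were examined gene by gene in murine tissue around implanted engineered cartilage. Electrons from NADH enter the chain at complex I and those from succinate at complex II, then pass through complex III to complex IV, where oxygen is reduced, and the protons pumped on the way drive the ATP synthase, complex V. Most subunits are encoded in the nucleus and imported, whereas a few core subunits of complexes I, III, IV and V are encoded by the mitochondrial genome, so that both genomes have to supply a working chain. Cartilage is a tissue of low oxygen supply whose chondrocytes rely largely on glycolysis, while muscle, brown fat and activated immune cells differ widely in respiratory capacity.

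Members were the lines of the raw count table with symbols that began with Nduf followed by a, b, c, s or v and a digit, with Uqcr, with Cox and a digit from 4 to 8 and a letter, with Atp5, or with mt-Nd, mt-Co, mt-Cytb or mt-Atp, and the genes Sdha, Sdhb, Sdhc and Sdhd. Of 48440 gene lines, 101 names matched. The 3 muscle-type isoform genes Cox6a2, Cox7a1 and Cox8b and 4 pseudogene names were removed, which left 94 members, 81 nuclear and 13 mitochondrially encoded. Complex I had 37 nuclear and 7 mitochondrial members, complex II 4 nuclear ones, complex III 8 and 1, complex IV 15 and 3, and complex V 17 and 2. The names do not follow the structures exactly. Ndufa4 is now counted with complex IV, Cox7a2l is a factor that joins complexes III and IV, Atp5s and Atp5sl are not subunits of the ATP synthase itself, and the subunit genes Ndufab1 and Cyc1 do not carry such names.

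The tissue came from male BALB/c nude mice, an athymic strain that lacks most mature T cells. Bone marrow stromal cells of rabbits were grown into cartilage (BMSCs-engineered cartilage, BEC) on PLGA scaffolds, wrapped in an electrospun membrane of PCL and collagen and placed under the skin. The membrane held no axitinib in the 0%-Axitinib group, which the sample labels call ctrl and untreated and for which the deposited protocol gives a mass ratio of 0%, and 3% axitinib by weight in the 3%-Axitinib group. Axitinib inhibits the tyrosine kinases of the VEGF receptors. Samples were harvested at 12 weeks with the murine tissue entangled with the construct, with 3 samples in each group. Reads were mapped to the mouse genome. The sources used here do not say that RNA of the rabbit cells was kept out, and its part in the counts was not tested. Each mouse carried a pair of constructs from 1 group, and it is not known which samples shared a mouse, so n is a number of samples and p-values measure only the spread between them.

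Counted reads were 17761968, 16716411 and 18005908 in 0%-Axitinib replicates 1, 2 and 3 and 9225518, 11686084 and 18403795 in 3%-Axitinib replicates 1, 2 and 3, and per-sample values below follow this order. Numbers given as in turn come from fits that leave out each sample in this order and filter the genes anew. Unmapped reads made up 5.47%, 3.84% and 14.9% in the 0%-Axitinib samples and 48.4%, 29.2% and 16.8% in the 3%-Axitinib samples. The shares were higher with axitinib and did not overlap between the groups, and their part in the results was not tested. Levels are given as CPM, read counts scaled to a common library size with TMM (trimmed mean of M values) factors. In bulk tissue, fewer cells of a type and less RNA per cell cannot be told apart.

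Most nuclear subunit genes had positive log2 fold changes between the 3%-Axitinib and the 0%-Axitinib group, but few met the criterion, and 1 control sample stood apart from the other controls. The summed level of the 81 nuclear members was 6107, 6073 and 11007 CPM in the 0%-Axitinib group and 10013, 9917 and 10056 CPM in the 3%-Axitinib group. The 3 samples of the 3%-Axitinib group lay close together, 0%-Axitinib replicates 1 and 2 lay well below them, and 0%-Axitinib replicate 3 lay above all of them, so the groups overlapped. The mitochondrially encoded members did not follow this order, with a summed level of 19994, 16849 and 10040.0 CPM in the 0%-Axitinib group and 21984, 27960.0 and 14403 CPM in the 3%-Axitinib group. There 0%-Axitinib replicate 3 was the lowest sample and 3%-Axitinib replicate 2 the highest, and the groups overlapped again.

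Of the 94 members, 89 passed the filter on low counts and were tested. The criterion of the study, a fold change of at least 1.5 with an unadjusted P of at most 0.05, was met by 12 members with higher counts in the 3%-Axitinib group (13.5%) and by 0 with lower counts, against 9.54% higher and 11.7% lower of all 15257 genes tested. Of the nuclear members alone, 9 of 79 tested were higher (11.4%). The other 3 were mt-Co2, mt-Co3 and mt-Atp6, which have few reads and near-identical nuclear copies. In the whole table lower calls outnumbered higher ones in this fit, whereas members had no lower call. That order turned without 0%-Axitinib replicate 3 (2274 higher and 2148 lower). It also turned with the mean of skeletal muscle markers as a covariate (911 higher and 841 lower). The paper reports more upregulated than downregulated genes. At an unadjusted P of at most 0.05 without the fold minimum, 13 members were higher and 0 lower in edgeR, and 3585 of all 15257 genes were called in either direction. The criterion was met by 12 higher and 0 lower members in limma-voom (all genes, 9.62% and 9.73%) and by 13 higher and 0 lower members in the DESeq2 Wald test (all genes, 10.7% and 12.9%). No member reached an adjusted p of 0.05 in edgeR or limma-voom, and 10 did in DESeq2 (11.2% against 12.8% of all genes tested). Of all genes tested, 1 did so in edgeR and 2 in limma-voom. In 15 members every 3%-Axitinib sample was above every 0%-Axitinib sample and in 0 every one was below, against 14.7% and 16.6% of all genes tested.

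The median log2 fold change was 0.37 over the 79 tested nuclear members and 0.73 over the 10 tested mitochondrial ones, against -0.034 over all genes tested. The mitochondrial median was 0.41 when 3%-Axitinib replicate 2 was left out and 1.04 when replicate 3 of that group was. Of the nuclear members 71 had a positive log2 fold change, and 61 had one with total counts. Scaling by total counts instead of TMM shifted the median of all genes to -0.16 and changed the calls over the whole table from 1456 higher and 1785 lower to 989 higher and 2448 lower. Relative to the median of all genes, the nuclear median was 0.40 with TMM and 0.41 with total counts, and the mitochondrial median was 0.77 and 0.76. With total counts 7 members met the criterion as higher, 7.87% against 6.48% of all genes tested.

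Leaving out 0%-Axitinib replicate 3 changed the count of higher members from 12 to 60 of 90 tested, against 14.5% of the 15690 genes tested in that fit, and no member was lower, against 13.7%. Then 33 members, all nuclear, had an edgeR adjusted p of at most 0.05 (36.7% of members against 7.98% of all genes), and the nuclear median log2 fold change was 0.80 beside 0.021 for all genes tested. The count was 6 without 0%-Axitinib replicate 1 (6.67% against 9.72% of all genes) and 7 without 0%-Axitinib replicate 2 (7.78% against 6.65%). It was 9 without 3%-Axitinib replicate 1 (10.1% against 6.66%), 7 without replicate 2 of that group (7.87% against 7.97%) and 14 without its replicate 3 (15.6% against 7.10%). With the first or the second control left out the nuclear medians were 0.20 and 0.20. In 72 of 79 tested nuclear members, every 3%-Axitinib sample was above 0%-Axitinib replicates 1 and 2, against 26.8% of all genes tested, and in 1 every one was below, against 27.4%. In 40 of the same 79, 0%-Axitinib replicate 3 was above every 3%-Axitinib sample, as it was in 5738 of all 15257 genes tested.

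**Figure D1:**
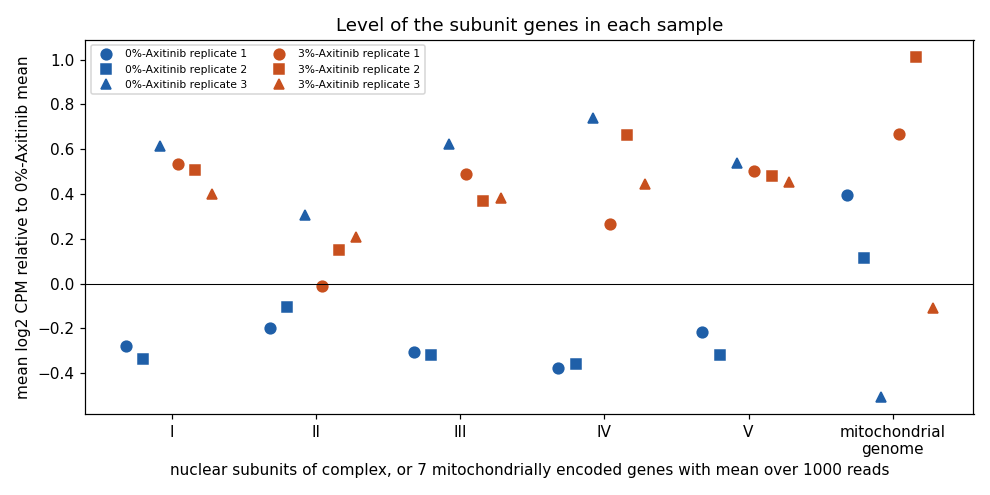
Mean log2 CPM of the tested nuclear members of each complex and of the 7 mitochondrially encoded genes with a mean over 1000 reads (y axis, as the difference from the average of the 3 controls), 1 point per sample, with blue for 0%-Axitinib and orange for 3%-Axitinib. For complex I the 0%-Axitinib samples stood at -0.28, -0.34 and 0.61 and the 3%-Axitinib samples at 0.53, 0.51 and 0.40; replicate 3 of the 0%-Axitinib group is the triangle that is high in every complex and low for the mitochondrial genome.

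Complex I, the NADH dehydrogenase, had 5 members that met the criterion as higher among 37 tested nuclear ones (2, 2, 28, 4, 4 and 6 in turn) and a median log2 fold change of 0.37. Leaving out 0%-Axitinib replicate 3 gave 28 higher members and a median of 0.90. Of all genes tested, 9.54% were higher in the main fit and 14.5% without that sample. The 5 members include Ndufa4l2, placed here by name, whose paralog Ndufa4 is now counted with complex IV. Ndufa10 (chromosome 1, 92439010 to 92473860 of GRCm38), an accessory subunit, was at 58.7, 63.4 and 70.2 CPM in the 0%-Axitinib group and 120.4, 95.3 and 110.3 CPM in the 3%-Axitinib group. The groups did not overlap. Its log2 fold change was 0.76 (SE 0.182, adjusted p = 0.0989 by the edgeR quasi-likelihood test with Benjamini-Hochberg adjustment). Ndufa10 missed the criterion with the muscle covariate (0.63) and with 3%-Axitinib replicate 2 as the only sample of its group (0.57).

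Ndufv1, which carries the flavin site where NADH is oxidized (chromosome 19, 4007384 to 4012806), was at 75.7, 65.5 and 103 CPM in the 0%-Axitinib group and 146, 119.5 and 138 CPM in the 3%-Axitinib group. Ndufs8, which holds iron-sulfur clusters on the path of the electrons to ubiquinone (chromosome 19, 3908863 to 3912774), was at 42.0, 41.3 and 56.1 CPM in the 0%-Axitinib group and 71.6, 71.5 and 75.6 CPM in the 3%-Axitinib group. For both genes the groups did not overlap, and 0%-Axitinib replicate 3 was the highest control. The log2 fold change was 0.72 (SE 0.228, edgeR adjusted p = 0.138) for Ndufv1 and 0.65 (SE 0.186, edgeR adjusted p = 0.122) for Ndufs8. Ndufa12, an accessory subunit (chromosome 10, 94198720 to 94221443), was at 29.2, 25.4 and 46.8 CPM in the 0%-Axitinib group and 63.6, 57.7 and 48.8 CPM in the 3%-Axitinib group, where 0%-Axitinib replicate 3 came just below the lowest 3%-Axitinib sample. Its log2 fold change was 0.75 (SE 0.270, edgeR adjusted p = 0.166). Without 0%-Axitinib replicate 1 the log2 fold changes of Ndufa12, Ndufv1 and Ndufs8 were 0.65, 0.67 and 0.58, without 0%-Axitinib replicate 2 they were 0.57, 0.59 and 0.57, and the genes then missed the criterion. Ndufa12 also missed it without 3%-Axitinib replicate 1 (0.66) or 2 (0.74), and with total counts Ndufa12 (0.62) and Ndufs8 (0.52) missed it.

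The other 32 nuclear members of complex I had log2 fold changes from -0.42 for Ndufb2 to 0.73 for Ndufb9. Ndufb9, an accessory subunit of the membrane arm, was at 49.0, 45.4 and 125 CPM in the 0%-Axitinib group and 130.3, 112 and 121 CPM in the 3%-Axitinib group. Here 0%-Axitinib replicate 3 stood with the 3%-Axitinib samples, more than 2 times above the other controls, and the SE of the log2 fold change of 0.73 was 0.406. Without that sample it was 1.36 (SE 0.156, edgeR adjusted p = 0.0379). Ndufa2, the nuclear member of complex I with the highest mean CPM per kb of exon, was at 62.2, 51.4 and 164 CPM in the 0%-Axitinib group and 100.0, 115 and 119 CPM in the 3%-Axitinib group, with the highest sample among the controls. Ndufs1, the largest iron-sulfur subunit, was at 51.2, 58.3 and 68.1 CPM in the 0%-Axitinib group and 53.3, 47.7 and 51.8 CPM in the 3%-Axitinib group, and the groups overlapped, with the lowest value in 3%-Axitinib replicate 2 and the highest in 0%-Axitinib replicate 3. Ndufb2 had 300 reads over the 6 samples and a log2 fold change of -0.42 (SE 0.389). Reads of Ndufb6 and Ndufa13 are uncertain, because 39.0% and 30.0% of their exon bases also belong to Smim27 and Tssk6, and the strand setting of the counts is not given in the sources used here.

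The paralogs Ndufa4 and Ndufa4l2 differed in pattern. Ndufa4l2 (chromosome 10, 127514967 to 127517154), a gene known to be induced by the hypoxia-inducible factor HIF-1 and to lower respiration, was at 44.0, 43.3 and 20.1 CPM in the 0%-Axitinib group and 147, 241 and 91.4 CPM in the 3%-Axitinib group. Every 3%-Axitinib sample was at least 2 times above every control, and 0%-Axitinib replicate 3 was the lowest sample. This was the largest log2 fold change among the members, 2.16 (SE 0.453, adjusted p = 0.0965 by the edgeR quasi-likelihood test with Benjamini-Hochberg adjustment), and all 18 alternative fits kept it within 1.73 to 2.74. Ndufa4 itself was at 69.9, 72.5 and 158 CPM in the 0%-Axitinib group and 119, 115 and 91.5 CPM in the 3%-Axitinib group, with overlapping groups and a log2 fold change of 0.12 (SE 0.350) that turned negative under total counts and without 0%-Axitinib replicate 1 or 2. Ndufa4l2 reads per Ndufa4 read, not corrected for length, were 0.629, 0.596 and 0.128 in the 0%-Axitinib samples and 1.24, 2.10 and 0.998 in the 3%-Axitinib samples, so that the ratio too was lowest in 0%-Axitinib replicate 3 and above every control in each 3%-Axitinib sample.

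**Figure D2:**
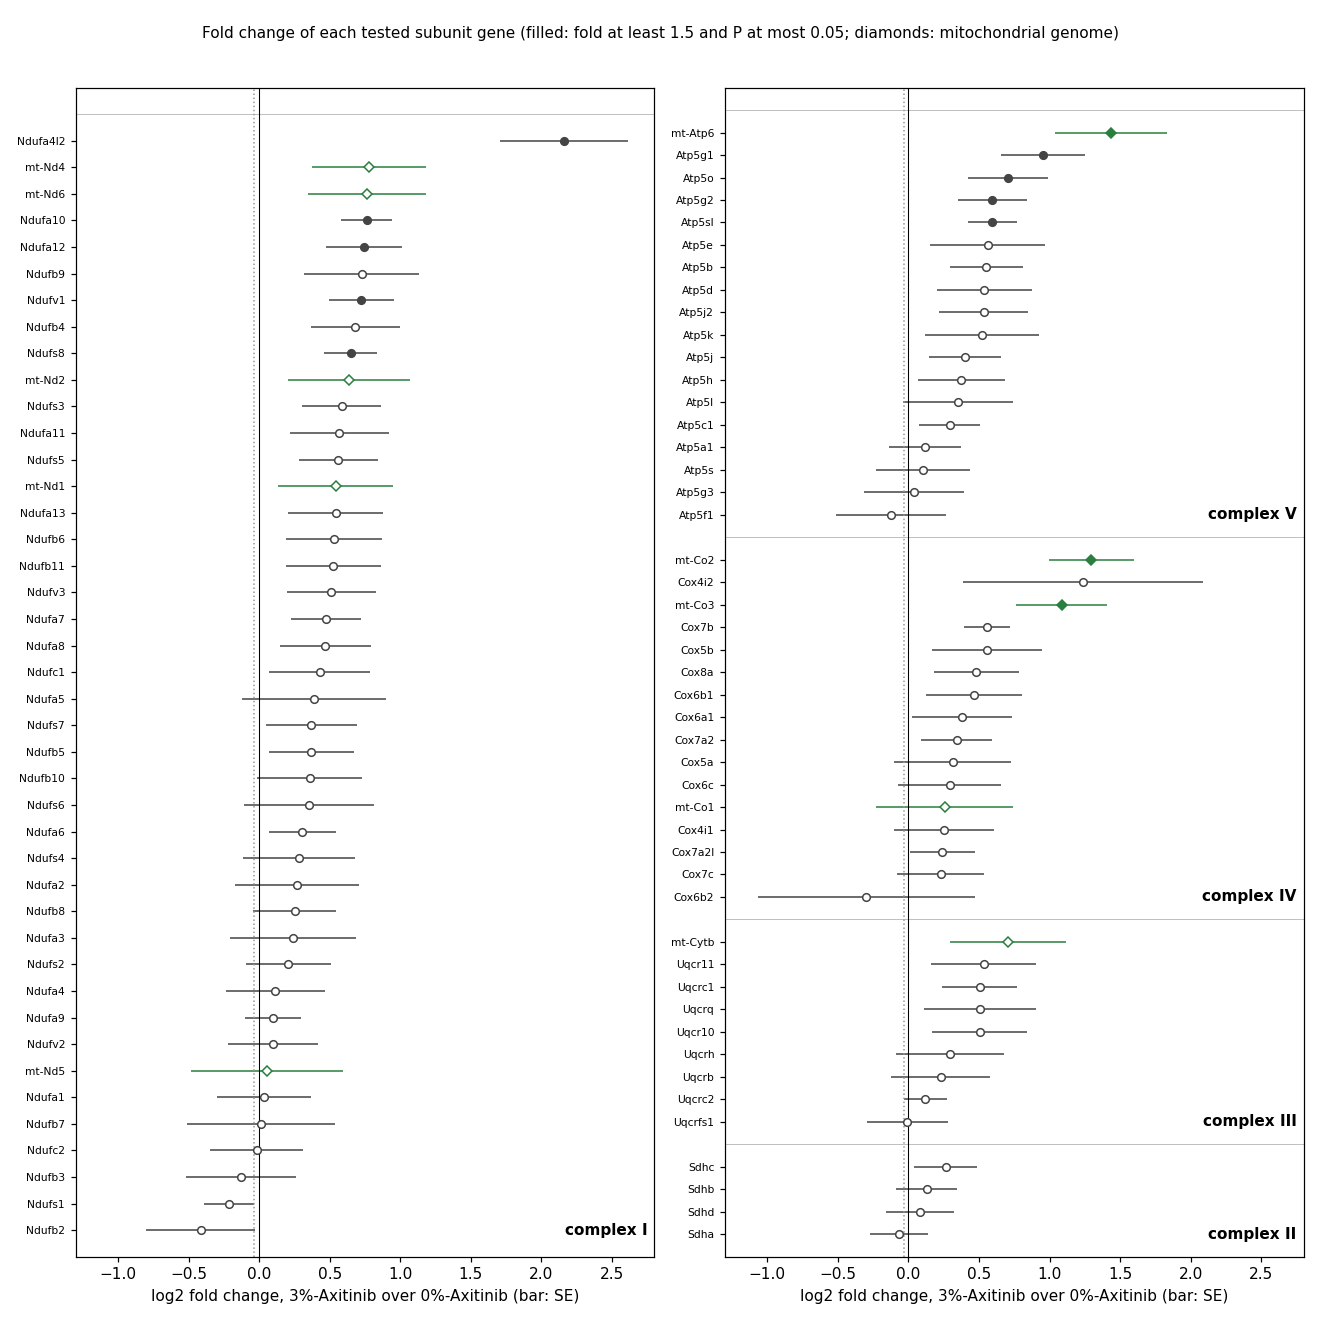
Log2 fold change of the 89 tested members (x axis, 3%-Axitinib over 0%-Axitinib; bars, SE), with complex I at left and complexes II to V at right, green diamonds for mitochondrially encoded genes and the dotted line at the median of all genes tested. Filled symbols mark the 12 members that met the criterion; 81 members lie above 0 and Ndufa4l2 is farthest right.

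Complex II, succinate dehydrogenase, links the chain to the tricarboxylic acid cycle and is encoded by 4 nuclear genes only. None of the 4 met the criterion in edgeR, with or without 0%-Axitinib replicate 3, and none met it by DESeq2 or limma-voom. With all samples none had an unadjusted P of at most 0.05 in these 3 tools, and without 0%-Axitinib replicate 3 Sdhc did in edgeR at a log2 fold change of 0.47. Sdha, the flavoprotein that oxidizes succinate (chromosome 13, 74322254 to 74350280), was at 175, 181 and 197 CPM in the 0%-Axitinib group and 169, 153 and 207 CPM in the 3%-Axitinib group. Sdhb, the iron-sulfur subunit (chromosome 4, 140961203 to 140979193), was at 81.9, 85.0 and 121 CPM in the 0%-Axitinib group and 95.7, 114 and 105 CPM in the 3%-Axitinib group. The groups overlapped for both, and 0%-Axitinib replicate 3 was the highest control.

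Sdhc and Sdhd anchor the enzyme in the membrane. Sdhc was at 92.6, 95.2 and 137 CPM in the 0%-Axitinib group and 118, 140.0 and 132 CPM in the 3%-Axitinib group. Sdhd was at 87.4, 103 and 144 CPM in the 0%-Axitinib group and 103, 126 and 125 CPM in the 3%-Axitinib group. In both genes 0%-Axitinib replicates 1 and 2 were the lowest samples, for Sdhd by a narrow margin, and replicate 3 was within the range of the 3%-Axitinib group for Sdhc and above all other samples for Sdhd. The 4 log2 fold changes were -0.064 (SE 0.206), 0.13 (SE 0.217), 0.26 (SE 0.224) and 0.082 (SE 0.240) for Sdha to Sdhd, with a median of 0.11 that became -0.022 with total counts and 0.32 without 0%-Axitinib replicate 3.

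Complex III, the cytochrome bc1 complex, had 0 of 8 nuclear members that met the criterion in edgeR, none at an unadjusted P of at most 0.05 and none by DESeq2 or limma-voom; the median log2 fold change was 0.40. Leaving out 0%-Axitinib replicate 3 gave 5 higher members, 4 of them at an edgeR adjusted p of at most 0.05, and a median of 0.82. In that fit 14.5% of all genes tested were higher. Uqcrc1, a core protein (chromosome 9, 108936633 to 108949623), was at 126, 138 and 215 CPM in the 0%-Axitinib group and 237, 196 and 247 CPM in the 3%-Axitinib group. Its partner Uqcrc2 was at 64.0, 68.0 and 65.1 CPM in the 0%-Axitinib group and 73.7, 68.5 and 72.1 CPM in the 3%-Axitinib group. In Uqcrc2 all 3%-Axitinib samples were above all controls, but by a log2 fold change of 0.12 (SE 0.152) only, which was -0.0081 with total counts.

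Uqcrfs1, the Rieske iron-sulfur protein that takes electrons from ubiquinol, was at 71.1, 76.8 and 130.1 CPM in the 0%-Axitinib group and 94.1, 75.5 and 107 CPM in the 3%-Axitinib group, with overlapping groups and a log2 fold change of -0.0075 (SE 0.286). Leaving out 0%-Axitinib replicate 3 gave 0.32 for Uqcrfs1, and leaving out 3%-Axitinib replicate 2 gave 0.13. Uqcr10, the nuclear member of complex III with the highest CPM per kb, was at 51.3, 49.8 and 110.5 CPM in the 0%-Axitinib group and 93.3, 107 and 99.9 CPM in the 3%-Axitinib group. Here too replicate 3 was the highest of all 6 samples, and without it the log2 fold change was 0.98 (SE 0.145, edgeR adjusted p = 0.0379).

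Complex IV, cytochrome c oxidase, had 0 of 13 tested nuclear members that met the criterion in edgeR, none by DESeq2 or limma-voom, 1 with an unadjusted P of at most 0.05 in each of the 3 tools (Cox7b in edgeR), and a median log2 fold change of 0.34. Leaving out 0%-Axitinib replicate 3 gave 12 higher members and a median of 0.79, and leaving out 3%-Axitinib replicate 3 gave 1 higher member. In these fits 14.5% and 7.10% of all genes tested were higher. Cox7b, a small subunit (chromosome X, 106015700 to 106022450), missed the fold minimum narrowly at 65.7, 60.4 and 69.7 CPM in the 0%-Axitinib group and 99.0, 100.4 and 88.8 CPM in the 3%-Axitinib group. The groups did not overlap, and its log2 fold change was 0.56 (SE 0.166, edgeR adjusted p = 0.128). It met the criterion without 0%-Axitinib replicate 3 (0.60) or 3%-Axitinib replicate 3 (0.61). Cox5b, a zinc-binding subunit on the matrix side, was at 71.5, 69.9 and 174 CPM in the 0%-Axitinib group and 159, 172 and 132 CPM in the 3%-Axitinib group, and 0%-Axitinib replicate 3 alone kept the groups from separating, with a log2 fold change of 1.12 without it.

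Several subunits of complex IV exist as isoforms that mark tissues or conditions. Cox4i1 encodes the common form of subunit 4, at 193, 212 and 436 CPM in the 0%-Axitinib group and 316, 313 and 374 CPM in the 3%-Axitinib group. Cox4i2, known as the lung and low-oxygen form, was at 4.96, 5.19 and 18.3 CPM in the 0%-Axitinib group and 6.49, 48.7 and 11.7 CPM in the 3%-Axitinib group. Its highest value was in 3%-Axitinib replicate 2, followed by 0%-Axitinib replicate 3, and the log2 fold change was 1.24 (SE 0.851), or -0.037 without 3%-Axitinib replicate 2. Cox6a1, the common form with the highest CPM per kb among nuclear members of the complex, was at 179, 178 and 362 CPM in the 0%-Axitinib group and 242, 360.1 and 334 CPM in the 3%-Axitinib group. The muscle form Cox6a2, outside the members, was at 0.992, 0.816 and 2.72 CPM in the 0%-Axitinib group and 103, 1.73 and 52.8 CPM in the 3%-Axitinib group. It was high in 3%-Axitinib replicates 1 and 3 only, with the other 4 samples at most 2.72 CPM.

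Cox7a2, the common form, was at 55.7, 58.8 and 96.4 CPM in the 0%-Axitinib group and 85.1, 97.3 and 85.1 CPM in the 3%-Axitinib group, and its muscle counterpart Cox7a1 at 1.51, 1.52 and 1.96 CPM in the 0%-Axitinib group and 27.2, 4.28 and 12.2 CPM in the 3%-Axitinib group. Cox8a, the common form of subunit 8, was at 149, 147 and 255 CPM in the 0%-Axitinib group and 199.7, 287 and 282 CPM in the 3%-Axitinib group, and muscle Cox8b, which did not pass the filter, at 0.261, 0.408 and 0.272 CPM in the 0%-Axitinib group and 58.4, 0.273 and 17.5 CPM in the 3%-Axitinib group. The 3 muscle forms were all highest in 3%-Axitinib replicate 1 and second in replicate 3. Cox7a2l was at 175, 188 and 249 CPM in the 0%-Axitinib group and 220.2, 233 and 270.3 CPM in the 3%-Axitinib group, and Cox6b1, a subunit facing the intermembrane space, at 98.8, 104 and 219 CPM in the 0%-Axitinib group and 185, 192 and 203 CPM in the 3%-Axitinib group, with overlapping groups in both. Its testis form Cox6b2 was at 3.81, 4.20 and 24.5 CPM in the 0%-Axitinib group and 5.83, 13.1 and 7.47 CPM in the 3%-Axitinib group, highest in 0%-Axitinib replicate 3. No read of Cox7b2 or Cox8c was counted in any sample, which allows up to 0.157 to 0.330 CPM per sample (3 counts, counting error only).

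**Figure D3:**
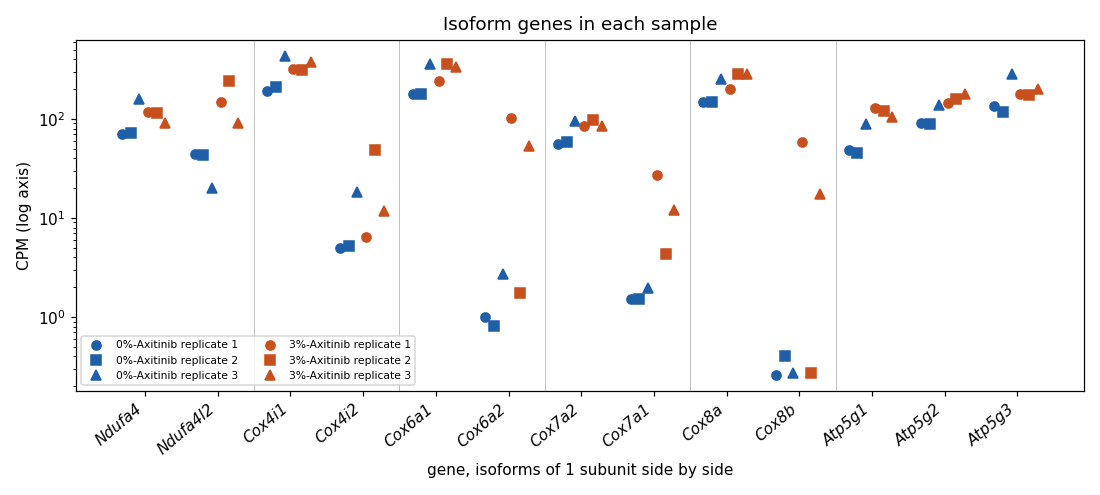
CPM (log axis) of isoform genes in each sample, blue for 0%-Axitinib and orange for 3%-Axitinib, with the genes of one subunit between grey lines. Cox6a2, Cox7a1 and Cox8b are high in 3%-Axitinib replicates 1 and 3, Ndufa4l2 is higher in all 3 samples of the 3%-Axitinib group (147, 241 and 91.4 CPM), and the common forms Ndufa4, Cox4i1, Cox6a1, Cox7a2 and Cox8a are lowest in 0%-Axitinib replicates 1 and 2.

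Markers of skeletal muscle were high in the same samples as the muscle isoforms. Of all genes tested, 9.54% were higher in edgeR, 10.7% in DESeq2 and 9.62% in limma-voom. Of 38 marker genes 36 were tested and 33 met the criterion as higher in edgeR (31 in DESeq2 and 4 in limma-voom), with a summed level of 330.5, 93.5 and 155 CPM in the 0%-Axitinib group and 23471, 179 and 12959 CPM in the 3%-Axitinib group. The gene with the most reads, Acta1, skeletal muscle actin, was at 35.1, 0.292 and 0.0543 CPM in the 0%-Axitinib group and 3924, 0.0911 and 1852 CPM in the 3%-Axitinib group. With the mean of the muscle markers as a covariate, 8 members met the criterion as higher (8.99% against 5.97% of all genes), 6 of them among the 12 called without it, and 5 of them nuclear, and the nuclear median was 0.45. Ndufa10, Ndufa12, Ndufv1, Ndufs8, Atp5g2 and Atp5o missed the criterion in that fit. When 3%-Axitinib replicate 2 alone was set against the 3 controls, an alternative chosen after seeing the data that takes the lone sample to vary like the others, the nuclear median was 0.40 and 7 members met the criterion as higher (7.78% against 3.26% of all genes), 2 of them nuclear. The part of muscle in the subunit results was not tested beyond these fits.

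Complex V, the ATP synthase, had 4 of 17 nuclear members that met the criterion as higher (1, 2, 11, 2, 1 and 1 in turn) and a median log2 fold change of 0.52. Leaving out 0%-Axitinib replicate 3 gave 11 higher members and a median of 0.75. Of all genes tested, 9.54% were higher in the main fit and 14.5% without that sample. The 4 members include Atp5sl, placed here by name, which is not a subunit of the ATP synthase. The catalytic head is formed by the products of Atp5a1 and Atp5b. Atp5b (chromosome 10, 128083273 to 128090391) was at 534, 566 and 689 CPM in the 0%-Axitinib group and 987, 789.9 and 847 CPM in the 3%-Axitinib group. Atp5a1, the nuclear member of the complex with the highest CPM per kb as the average of the groups, though below Atp5b in the 3%-Axitinib group, was at 458, 495 and 626 CPM in the 0%-Axitinib group and 559, 508 and 647 CPM in the 3%-Axitinib group. The groups were separate for Atp5b, with a log2 fold change of 0.55 (SE 0.258, edgeR adjusted p = 0.244) that missed the criterion with all samples and met it at 0.67 without 0%-Axitinib replicate 3, and overlapped for Atp5a1, at 0.12 (SE 0.254) or -0.0090 with total counts.

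The rotating ring is built of identical c subunits, for which Atp5g1, Atp5g2 and Atp5g3 encode the same mature protein with different import signals. Atp5g1 (chromosome 11, 96068852 to 96075670) was at 48.8, 45.0 and 89.3 CPM in the 0%-Axitinib group and 128, 120.0 and 106 CPM in the 3%-Axitinib group. Atp5g2 (chromosome 15, 102662864 to 102672352) was at 91.1, 89.2 and 139 CPM in the 0%-Axitinib group and 145, 159 and 178 CPM in the 3%-Axitinib group. Atp5g3 was at 136, 118 and 285 CPM in the 0%-Axitinib group and 179, 175 and 201 CPM in the 3%-Axitinib group. The first 2 met the criterion without overlap of the groups, while Atp5g3 was highest in 0%-Axitinib replicate 3. Log2 fold changes were 0.95 (SE 0.297, adjusted p = 0.136 by the edgeR quasi-likelihood test with Benjamini-Hochberg adjustment) for Atp5g1, 0.60 (SE 0.243, edgeR adjusted p = 0.200) for Atp5g2 and 0.041 (SE 0.357) for Atp5g3, which was -0.084 with total counts. Without 0%-Axitinib replicate 1 Atp5g1 was at 0.81 and missed the criterion. Atp5g2 missed it with total counts (0.47) and with 0%-Axitinib replicate 1 or 2 or any of the 3%-Axitinib samples left out, at 0.48 to 0.67.

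Atp5o, part of the stalk that holds the head (RefSeq chromosome 16, 91925223 to 91931630), was at 59.2, 54.5 and 106 CPM in the 0%-Axitinib group and 118, 119 and 121 CPM in the 3%-Axitinib group. Atp5sl, also named Dmac2, a factor of complex I assembly (RefSeq chromosome 7, 25619414 to 25625550), was at 27.2, 25.3 and 23.6 CPM in the 0%-Axitinib group and 35.0, 40.5 and 39.5 CPM in the 3%-Axitinib group. Both met the criterion, without overlap of the groups, and the lowest sample for Atp5sl was 0%-Axitinib replicate 3. Their log2 fold changes were 0.71 (SE 0.284, edgeR adjusted p = 0.195) and 0.60 (SE 0.174, edgeR adjusted p = 0.126). Atp5f1, the b subunit of the stalk, was at 125, 139.8 and 326 CPM in the 0%-Axitinib group and 198, 179 and 166 CPM in the 3%-Axitinib group, with 326 CPM in 0%-Axitinib replicate 3 well above all others. With 0%-Axitinib replicate 1 or 2 or any of the 3%-Axitinib samples left out, Atp5o was at 0.53 to 0.73 and missed the criterion. Atp5sl missed it without 0%-Axitinib replicate 3 (0.54) or 3%-Axitinib replicate 2 (0.56) or 3 (0.57). With total counts Atp5o (0.58) and Atp5sl (0.46) missed it as well. Over the 18 alternative fits, Atp5sl lost the call in 7 and Atp5g2 in 10. Without the names Atp5s, Atp5sl, Cox7a2l, Ndufa4l2, Cox4i2 and Cox6b2, 7 of 73 tested nuclear members met the criterion (9.59% against 9.54% of all genes tested; 1, 2, 53, 4, 4 and 7 in turn) and the median was 0.37.

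The mitochondrial genome carries its 13 protein genes on a few long transcripts that are processed into single messages, so their counts share a source. They fell into 2 sets by depth. Means over 1000 reads a sample were found for 7 genes (mt-Nd1, mt-Nd2, mt-Co1, mt-Nd4, mt-Nd5, mt-Nd6 and mt-Cytb), whereas mt-Co2, mt-Atp8, mt-Atp6, mt-Co3, mt-Nd3 and mt-Nd4l, which neighbour each other, had at most 1000. Summed, the first set was at 19972, 16827 and 10024 CPM in the 0%-Axitinib group and 21941, 27895 and 14368 CPM in the 3%-Axitinib group and the second at 22.2, 21.8 and 15.4 CPM in the 0%-Axitinib group and 42.8, 65.1 and 34.8 CPM in the 3%-Axitinib group. The nuclear genome holds copies of this stretch in the reference. Gm28661 (chr1:24614885-24615565) matched 681 of 684 bases of mt-Co2 with 0 mismatches, Gm10925 678 bases of mt-Atp6 with 0, Gm28437 783 bases of mt-Co3 with 0, Gm28438 345 bases of mt-Nd3 with 1 and Gm10222 294 bases of mt-Nd4l with 0. The copies were counted too, Gm28661 with 1509 reads over all samples beside 1259 for mt-Co2. Levels of these genes are uncertain and may be too low. Multimapping reads were counted on a line apart from the genes, and reads that fit both places may be among them. The same holds for part of mt-Nd4, of which 876 of 1378 bases match Gm28439.

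Bases 441 to 500 of mt-Co2 and the aligned stretches of 2 nuclear copies are printed from GENCODE M21 transcripts (GRCm38), with capitals for bases that differ from mt-Co2. The stretch was picked because Gm13341 on chromosome 2 differs much from mt-Co2 there, so it is not typical of that copy. In the stretch the copy on chromosome 1 has 0 differences and Gm13341 has 7. Over all 684 aligned bases Gm13341 has 16 mismatches (95.9% identity).
mt-Co2: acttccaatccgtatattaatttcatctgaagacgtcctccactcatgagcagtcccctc
Gm28661: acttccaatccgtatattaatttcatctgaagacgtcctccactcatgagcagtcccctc
Gm13341: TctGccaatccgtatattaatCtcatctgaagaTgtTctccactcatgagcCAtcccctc

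Among the deeply counted genes none of 7 met the criterion in edgeR or limma-voom or reached an unadjusted P of at most 0.05 there, 1 did in DESeq2 (mt-Nd4), 2 did without 3%-Axitinib replicate 3 (mt-Nd4 at 1.04 and mt-Nd6 at 1.10), and the median log2 fold change was 0.64. mt-Co1, the catalytic subunit of complex IV (mitochondrial genome, 5328 to 6872), was at 9345, 8258 and 3564 CPM in the 0%-Axitinib group and 8762, 10129.7 and 6391 CPM in the 3%-Axitinib group. mt-Cytb, of complex III, was at 3119, 2327 and 1878 CPM in the 0%-Axitinib group and 3849, 5452 and 2643 CPM in the 3%-Axitinib group. For both 0%-Axitinib replicate 3 was the lowest and 3%-Axitinib replicate 2 the highest sample. The log2 fold change was 0.26 (SE 0.486) for mt-Co1 and 0.71 (SE 0.409) for mt-Cytb.

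Of the complex I genes, mt-Nd1 was at 2960.3, 2415 and 2270.2 CPM in the 0%-Axitinib group and 3599, 5282 and 2256 CPM in the 3%-Axitinib group, and mt-Nd2 at 1414, 1164 and 789.8 CPM in the 0%-Axitinib group and 1878, 2409 and 946 CPM in the 3%-Axitinib group. mt-Nd4 was at 1523, 1138 and 911 CPM in the 0%-Axitinib group and 2199, 2723 and 1203 CPM in the 3%-Axitinib group. Groups overlapped in all 3, with 3%-Axitinib replicate 3 at the level of the controls. mt-Nd5 was at 1265, 1257 and 324 CPM in the 0%-Axitinib group and 1096, 1167 and 691 CPM in the 3%-Axitinib group, so that 0%-Axitinib replicate 3 stood apart as the lowest. The light-strand gene mt-Nd6 was at 345, 268 and 287 CPM in the 0%-Axitinib group and 558, 733 and 237 CPM in the 3%-Axitinib group, and its reads cannot be told from those of the opposite strand where counting ignores strand. The log2 fold changes were 0.54, 0.64, 0.78, 0.053 (-0.081 with total counts) and 0.76 for mt-Nd1, mt-Nd2, mt-Nd4, mt-Nd5 and mt-Nd6, with SE from 0.405 to 0.538.

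The 3 tested genes with near-identical nuclear copies over almost their whole length met the criterion, on far fewer reads. mt-Co2 was at 9.50, 9.80 and 7.12 CPM in the 0%-Axitinib group and 19.6, 29.1 and 16.3 CPM in the 3%-Axitinib group. mt-Co3 was at 7.62, 7.41 and 5.21 CPM in the 0%-Axitinib group and 12.6, 19.3 and 11.1 CPM in the 3%-Axitinib group, and mt-Atp6 at 4.44, 4.02 and 2.72 CPM in the 0%-Axitinib group and 9.24, 14.4 and 6.72 CPM in the 3%-Axitinib group. In each the groups did not overlap, 0%-Axitinib replicate 3 was lowest and 3%-Axitinib replicate 2 highest. The log2 fold changes were 1.30 (SE 0.300, adjusted p = 0.0973 by the edgeR quasi-likelihood test with Benjamini-Hochberg adjustment) for mt-Co2, 1.09 (SE 0.323, edgeR adjusted p = 0.128) for mt-Co3 and 1.44 (SE 0.395, edgeR adjusted p = 0.116) for mt-Atp6. Without 3%-Axitinib replicate 2 mt-Co3 was at 0.81 and missed the criterion. mt-Nd3, mt-Nd4l and mt-Atp8 had 63, 15 and 3 reads over all samples and were not tested.

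**Figure D4:**
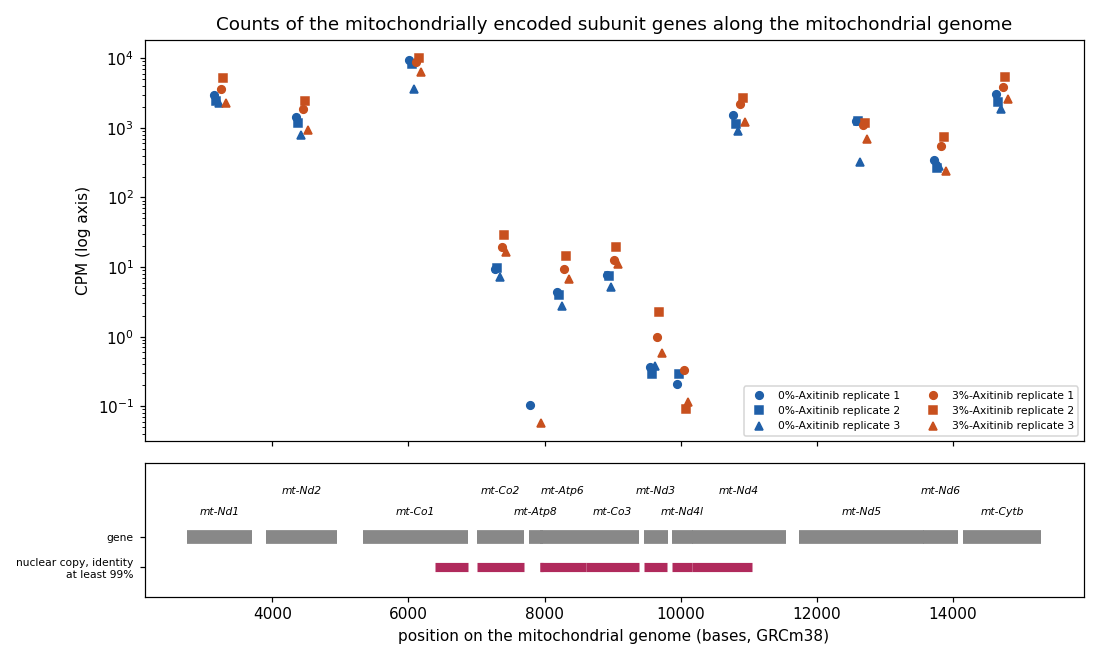
Upper panel, CPM (log axis; values of 0 not drawn) of the 13 mitochondrially encoded genes in each sample at their position on the mitochondrial genome; lower panel, the genes (grey) and stretches with a nuclear copy of at least 99% identity (red). Genes covered almost fully by such a copy lie below 30 CPM, while mt-Co1, covered over 483 of its 1545 bases, lies above 3000 CPM.

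As a share of all counted reads, nuclear members took 0.659%, 0.623% and 1.13% in the 0%-Axitinib samples and 0.987%, 0.931% and 0.944% in the 3%-Axitinib samples, and mitochondrial members 2.16%, 1.73% and 1.03% in the 0%-Axitinib samples and 2.17%, 2.63% and 1.35% in the 3%-Axitinib samples. The widest 95% Wilson interval of these and of the unmapped shares reached 0.0209 percentage points to either side, which covers counting error only. Mitochondrial reads per nuclear member read were 3.27, 2.77 and 0.912 in the 0%-Axitinib samples and 2.20, 2.82 and 1.43 in the 3%-Axitinib samples. The ratio was lowest in 0%-Axitinib replicate 3, and the groups overlapped; the smallest P an exact permutation test can give with 3 against 3 samples is 0.1, and none was run.

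The deviation of 0%-Axitinib replicate 3 was described over genes, which are not independent replicates. Its log2 CPM minus the mean of the other 2 controls had a median of 0.99 over 77 nuclear members with a known exon length and of 0.00351 over all genes tested, and was positive in 74 of the 77. It was larger in genes with fewer exon bases, counted over all annotated exons of a gene together. Spearman's rho with this length was -0.38 over the nuclear members and -0.24 over 14616 tested genes with a length. For the 39 members of at most 1587 exon bases the median difference was 1.11, and for the 38 longer ones 0.80. In the 7 deeply counted mitochondrial genes it was -0.53, negative in each.

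The same sample stood apart in other genes. Beside the calls below, 11.7% of all genes tested were lower in edgeR, 12.9% in DESeq2 and 9.73% in limma-voom. In turn the edgeR shares were 12%, 10.1%, 13.7%, 8.24%, 9.28% and 8.43%. The 6 erythroid genes summed to 446, 394 and 22135 CPM in the 0%-Axitinib group and 168, 381 and 534 CPM in the 3%-Axitinib group, led by Hbb-bs, and 5 of 5 tested met the criterion as lower in edgeR (5, 5, 1, 0, 0 and 0 in turn) but 0 in DESeq2 and 0 in limma-voom. The 10 leukocyte, B and T cell genes summed to 529, 739.8 and 2432 CPM in the 0%-Axitinib group and 395, 377 and 568 CPM in the 3%-Axitinib group, led by Coro1a, with 5 of 8 lower in edgeR (9, 5, 3, 5, 7 and 2 in turn) and 2 in limma-voom. The part of these cells in the levels of the nuclear members was not tested. With the erythroid genes left out of library sizes and scaling, an alternative added after seeing the data, 12 members met the criterion.

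Promoters of nuclear respiratory genes are known for sites of the factors NRF1 and GABP, and 3 short motifs were searched on both strands in RefSeq windows from 250 bases before to 50 after the gene start (GRCm38.p6). Windows numbered 69 for 64 members, with none for Ndufa4l2 or the low-oxygen form Cox4i2. The NRF1 core GCGCATGC, which overlaps its own reverse complement GCATGCGC, was in 10 member windows (14.5%) and in 2.71% of all 32851 windows. The ETS core CCGGAAG (reverse CTTCCGG) was in 16 (23.2%) against 8.86%, and the hypoxia-response core ACGTG (reverse CACGT) in 15 (21.7%) against 19.6%. A match is a description of letters and no evidence of binding.

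The 40 bases around the NRF1 core of the 10 members that hold it are printed to show how much of the palindrome each carries, in gene direction with the motif in capitals. On GRCm38.p6 they are Atp5g2 at chr15:102671062-102671101 (minus), Atp5k at chr5:108434422-108434461 (minus), Atp5l at chr9:44920953-44920992 (minus), Cox6a1 at chr5:115349093-115349132 (minus), Ndufa11 at chr17:56717690-56717729 (plus), Ndufa6 at chr15:82354347-82354386 (minus), Ndufa8 at chr2:36049319-36049358 (minus), Sdhb at chr4:140961205-140961244 (plus), Uqcr11 at chr10:80406798-80406837 (minus) and Uqcrc1 at chr9:108936658-108936697 (plus). Of these genes Atp5g2 alone met the criterion. With 10 letters in capitals both orientations of the core are present, with 8 only one.
Atp5g2: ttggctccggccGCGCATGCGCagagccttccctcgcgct
Atp5k: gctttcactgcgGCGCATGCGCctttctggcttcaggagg
Atp5l: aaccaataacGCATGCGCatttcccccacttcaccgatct
Cox6a1: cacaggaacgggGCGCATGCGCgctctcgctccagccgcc
Ndufa11: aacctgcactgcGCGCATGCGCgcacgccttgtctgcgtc
Ndufa6: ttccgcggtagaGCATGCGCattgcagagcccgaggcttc
Ndufa8: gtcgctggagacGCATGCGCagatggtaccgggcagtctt
Sdhb: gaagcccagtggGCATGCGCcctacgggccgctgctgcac
Uqcr11: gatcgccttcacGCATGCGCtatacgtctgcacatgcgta
Uqcrc1: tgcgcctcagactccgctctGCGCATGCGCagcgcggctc

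Genes around the chain were compared from further lists. Of all genes tested, 9.54% were higher and 11.7% lower in the main fit. In turn, 9.72%, 6.65%, 14.5%, 6.66%, 7.97% and 7.10% of all genes were higher. The lower shares in turn were 12%, 10.1%, 13.7%, 8.24%, 9.28% and 8.43%. The mitochondrial ribosomal proteins, which translate the 13 mitochondrial messages, had 11 higher and 0 lower of 76 tested (5, 6, 36, 11, 10 and 10 higher in turn) and a median log2 fold change of 0.32, and their summed level was 1699, 1679 and 2796 CPM in the 0%-Axitinib group and 2648, 2798 and 2639.8 CPM in the 3%-Axitinib group. 0%-Axitinib replicate 3 was at the level of the 3%-Axitinib group. Without it 36 were higher, against 14.5% of all genes tested in that fit, with a median of 0.58. The one with the most reads, Mrpl52, was at 41.7, 35.2 and 91.0 CPM in the 0%-Axitinib group and 95.4, 129 and 92.9 CPM in the 3%-Axitinib group. The largest log2 fold change was that of Mrps34, with 7.73, 7.87 and 9.51 CPM in the 0%-Axitinib group and 16.1, 15.8 and 19.6 CPM in the 3%-Axitinib group and a log2 fold change of 1.04 (SE 0.238, edgeR adjusted p = 0.0973). The groups did not overlap in either gene. Mrpl52 missed the criterion without 0%-Axitinib replicate 1 (0.74), 0%-Axitinib replicate 2 (0.67), 3%-Axitinib replicate 1 (1.00), 3%-Axitinib replicate 2 (0.76) or 3%-Axitinib replicate 3 (1.01).

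The tricarboxylic acid (TCA) cycle list had 5 higher and 0 lower of 18 tested (3, 4, 4, 2, 6 and 2 higher in turn) and a median of 0.22. Complex I assembly factors had 1 higher and 0 lower of 14 tested (1, 1, 3, 1, 1 and 2 higher in turn) and a median of 0.15. Foxred1 had the highest CPM averaged over the groups, at a log2 fold change of 0.035 (SE 0.254). Tmem126b, at a similar average CPM, was at -0.35 (SE 0.241). Ecsit met the criterion as higher. It was at 9.50, 8.34 and 11.0 CPM in the 0%-Axitinib group and 23.6, 16.2 and 22.5 CPM in the 3%-Axitinib group. The log2 fold change of Ecsit was 1.11 (SE 0.254, edgeR adjusted p = 0.0973). Assembly factors of complexes II to IV had 2 higher and 1 lower of 28 tested (1, 2, 5, 1, 3 and 3 higher in turn) and a median of 0.19. Among them Uqcc2 was at 35.8, 23.0 and 46.9 CPM in the 0%-Axitinib group and 74.3, 74.5 and 58.2 CPM in the 3%-Axitinib group, whereas Coa5 was at 72.0, 74.6 and 108 CPM in the 0%-Axitinib group and 48.1, 43.4 and 55.0 CPM in the 3%-Axitinib group. Both were separate between the groups, Uqcc2 higher and Coa5 lower in the 3%-Axitinib group. Lyrm7, the other one that met the criterion as higher, at 1.05 (SE 0.440), had at most 3.92 CPM. Lyrm7 missed the criterion without 0%-Axitinib replicate 1 (0.98), 0%-Axitinib replicate 2 (1.05), 0%-Axitinib replicate 3 (1.10), 3%-Axitinib replicate 1 (0.91) or 3%-Axitinib replicate 2 (0.85).

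Subunits and electron carriers with other names had 0 higher and 0 lower of 6 tested (0, 0, 2, 0, 0 and 0 higher in turn) in edgeR and a median of 0.24, and ATP synthase assembly and regulation had 0 higher and 0 lower of 6 tested (0, 0, 1, 0, 0 and 0 higher in turn) and a median of 0.017. Cyc1, cytochrome c1 of complex III, had the most reads of the first list, at 81.1, 79.5 and 112 CPM in the 0%-Axitinib group and 125, 125 and 131 CPM in the 3%-Axitinib group, and Oxa1l, a membrane insertase, of the second, at 71.3, 85.5 and 67.0 CPM in the 0%-Axitinib group and 83.1, 89.4 and 115 CPM in the 3%-Axitinib group. Genes for mitochondrial transcription, replication and RNA stability had 0 higher and 0 lower of 21 tested (0, 0, 0, 1, 0 and 0 higher in turn) and a median of -0.032, led by Tbrg4 at 31.9, 35.0 and 57.5 CPM in the 0%-Axitinib group and 45.9, 36.3 and 52.0 CPM in the 3%-Axitinib group. DESeq2 and limma-voom gave no call in these 3 lists either, and an unadjusted P of at most 0.05 was reached by 0, 0 and 1 genes in edgeR. Regulators of mitochondrial biogenesis had 0 higher and 1 lower of 10 tested (1, 1, 0, 0, 1 and 0 lower in turn) and a median of -0.23. The lower one, Gabpb1, a subunit of the ETS factor GABP, was at 16.9, 20.2 and 36.8 CPM in the 0%-Axitinib group and 13.3, 14.2 and 12.9 CPM in the 3%-Axitinib group. Gabpb1 missed the criterion without 0%-Axitinib replicate 3 (-0.47), 3%-Axitinib replicate 1 (-0.85), 3%-Axitinib replicate 2 (-0.90) or 3%-Axitinib replicate 3 (-0.83). The one with the most reads, Esrra, was at 63.8, 73.1 and 73.1 CPM in the 0%-Axitinib group and 56.6, 58.9 and 88.6 CPM in the 3%-Axitinib group, and the coactivator Ppargc1a at 0.887, 1.28 and 0.815 CPM in the 0%-Axitinib group and 2.86, 0.820 and 0.811 CPM in the 3%-Axitinib group. Of 24 mitochondrial rRNA and tRNA genes 3 were tested and 0 had an unadjusted P of at most 0.05 in edgeR, DESeq2 or limma-voom. The ribosomal RNA gene mt-Rnr2 was at 447, 351 and 634 CPM in the 0%-Axitinib group and 656, 695 and 363 CPM in the 3%-Axitinib group.

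Carriers and porins had 1 higher and 0 lower of 7 tested (2, 2, 2, 1, 2 and 1 higher or 1, 0, 0, 0, 0 and 0 lower in turn) and a median of 0.19. The higher one was the ADP and ATP exchanger Slc25a4. The one with the most reads, the phosphate carrier Slc25a3, was at 431, 439.7 and 511 CPM in the 0%-Axitinib group and 465, 419.9 and 560.1 CPM in the 3%-Axitinib group, with overlapping groups. Hypoxia-linked mitochondrial genes had 2 higher and 2 lower of 14 tested (1, 2, 3, 1, 3 and 1 higher or 0, 1, 2, 2, 2 and 0 lower in turn) and a median of 0.067. Bnip3l, a mitophagy receptor with the most reads among them, was at 202, 302 and 205 CPM in the 0%-Axitinib group and 219, 180.2 and 188 CPM in the 3%-Axitinib group. Besides Ndufa4l2, Bnip3 met the criterion as higher, at 28.9, 31.7 and 15.9 CPM in the 0%-Axitinib group and 95.7, 30.6 and 49.3 CPM in the 3%-Axitinib group, highest in the 2 samples with muscle markers. Bnip3 missed the criterion without 0%-Axitinib replicate 1 (1.29), 0%-Axitinib replicate 3 (0.94), 3%-Axitinib replicate 1 (0.65) or 3%-Axitinib replicate 3 (1.30). Epas1, which encodes HIF-2 alpha and is abundant in endothelial cells, was at 173, 163 and 111 CPM in the 0%-Axitinib group and 103, 82.2 and 89.3 CPM in the 3%-Axitinib group, and Hif1a at 85.3, 79.0 and 74.5 CPM in the 0%-Axitinib group and 56.1, 58.0 and 40.0 CPM in the 3%-Axitinib group. Both were below all controls in every 3%-Axitinib sample. Their log2 fold changes were -0.70 (SE 0.235, edgeR adjusted p = 0.150) and -0.63 (SE 0.201, edgeR adjusted p = 0.138). Epas1 missed the criterion without 0%-Axitinib replicate 1 (-0.58), 0%-Axitinib replicate 2 (-0.64), 3%-Axitinib replicate 2 (-0.63) or 3%-Axitinib replicate 3 (-0.69). Hif1a missed the criterion without 0%-Axitinib replicate 1 (-0.58) or 3%-Axitinib replicate 3 (-0.48).

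Further markers of cells that the tissue could hold are given with their levels, and their part in the subunit results was not tested. Of all genes tested, 9.54% were higher and 11.7% lower in edgeR. Endothelial markers had 0 higher and 12 lower of 14 tested, with summed levels of 1296, 913 and 1269 CPM in the 0%-Axitinib group and 446, 536 and 627 CPM in the 3%-Axitinib group, led by Eng. Eng itself missed the criterion, at a log2 fold change of -0.0061 (SE 0.257). Fibroblast markers had 2 higher and 0 lower of 10 tested (3, 0, 0, 1, 0 and 0 higher in turn), with summed levels of 32886, 17118 and 11336 CPM in the 0%-Axitinib group and 30192, 76275 and 32833 CPM in the 3%-Axitinib group, led by Col1a1, highest in 3%-Axitinib replicate 2. Macrophage markers had 0 higher and 0 lower of 12 tested (0, 0, 1, 0, 0 and 0 lower in turn), with 0 at an unadjusted P of at most 0.05 and none by DESeq2 or limma-voom, and had summed levels of 11982, 12545 and 9077 CPM in the 0%-Axitinib group and 8953, 11255 and 17444 CPM in the 3%-Axitinib group, led by Lyz2.

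Adipocyte markers had 0 higher and 2 lower of 10 tested (0, 1, 0, 0, 2 and 0 higher or 2, 2, 3, 7, 2 and 2 lower in turn) in edgeR (7 lower in limma-voom), with summed levels of 2088, 3153 and 1552 CPM in the 0%-Axitinib group and 1458, 948 and 1647 CPM in the 3%-Axitinib group, led by Lpl. Ucp1, which defines brown fat, was at most 0.117 CPM. Chondrocyte markers had 5 higher and 0 lower of 7 tested (5, 4, 5, 5, 3 and 4 higher in turn), with summed levels of 359, 213 and 166 CPM in the 0%-Axitinib group and 309, 1237 and 475 CPM in the 3%-Axitinib group, led by Comp. Matn1, Matn3 and Ucma of that list were at most 0.273 CPM. Keratinocyte and hair markers had 0 higher and 2 lower of 3 tested (4, 0, 5, 0, 0 and 0 lower in turn) in edgeR (1 lower in DESeq2 and 0 in limma-voom), with summed levels of 4.70, 971 and 7.93 CPM in the 0%-Axitinib group and 8.03, 7.65 and 6.08 CPM in the 3%-Axitinib group, led by Krt1. They stood out in 0%-Axitinib replicate 2.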

How the data were processed

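Libraries were made from total RNA of tissue of the 6 samples with a TruSeq kit, the paper describes selection of mRNA with oligo(dT) beads, and the authors deposited 1 table of raw read counts per gene symbol. The submitters' processing notes name STAR 2.5.2b and the builds mm10 and GRCm38; the counter, its annotation and its strand setting are not given in the sources used here. Lines that name no gene were kept out of library sizes and held 3.84% to 48.4% (unmapped), 2.71% to 6.65% (multimapping), 3.17% to 6.14% (no feature) and 3.55% to 5.74% (ambiguous) of the reads of a sample. Their names are those of STAR gene counts.

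Genes were filtered by filterByExpr (minimum count 10, minimum total 15), scaled by TMM and fitted by group with the edgeR quasi-likelihood test (edgeR 4.0.16, R 4.3.3), with Benjamini-Hochberg adjustment over all 15257 genes tested; log2 CPM used a prior count of 2, and SE is the log2 fold change over the root of the F statistic. Alternatives were DESeq2 size factors, total counts, scaling without mitochondrial, muscle or erythroid genes, the DESeq2 1.42.0 Wald test, limma 3.58.1 voom, other filters, a replicate block, a muscle covariate, other thresholds and leaving out samples. Members and lists were chosen with earlier results of these data known, so no list was tested. Named genes were the tested mitochondrial members, nuclear members that met the criterion, the 4 Sdh genes, the nuclear member with the highest CPM per kb in each complex, isoform sets, and some genes of lists, mostly those with the most reads or those that met the criterion; further subunit genes were named after their values were seen. Replicates differed by more than sampling noise in every pair. Exon lengths, overlaps and copies came from GENCODE M21 (blastn 2.17.0), promoters from RefSeq. Figures were drawn with matplotlib 3.10.9 in Python 3.11.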

Additional observations from a re-analysis of the deposited data

How the results depend on the processing

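The median log2 fold change of nuclear members was above 0 under all 18 alternative fits, as were those of mitochondrial members and of complexes I, III, IV and V; that of complex II was -0.022 with total counts. Higher members numbered 7 with total counts, 8 with the muscle covariate and 4 at P 0.01, where fewer pass by construction. With at least 10 counts required in every sample, 11.2% of members were higher (9.75% of all genes). With no filter 13% were (6% of all genes). Each of these filters kept 10 of the 12 members called in the main fit. With 1 sample left out higher members numbered 6 to 60. Members at an adjusted p of at most 0.05 then numbered 0 to 33 in edgeR (10 in DESeq2 with all samples). The highest counts came without 0%-Axitinib replicate 3, as did the highest medians of nuclear sets. With 1 sample left out medians were 0.20 to 0.80 for nuclear members, 0.20 to 0.90 for complex I, -0.020 to 0.32 for complex II, 0.19 to 0.82 for complex III, 0.20 to 0.79 for complex IV, 0.26 to 0.75 for complex V and 0.41 to 1.04 for mitochondrial members, highest there without 3%-Axitinib replicate 3. The cause was not tested.

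With the replicate block 12 members were higher and the nuclear median was 0.47; 12 of them were the members called without it. Deviations of same-numbered samples correlated at 0.18, -0.12 and -0.17 across genes, so the numbers were not taken to pair samples.

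Over the 48 tested subunit and isoform genes with values in the text, list genes not included, 759 of 864 values under alternatives kept direction and side of the criterion, 50 lost the call, 22 gained it and 33 changed sign, all in genes that missed the criterion. Total counts gave -0.081 for mt-Nd5, -0.046 for Sdhd, -0.0090 for Atp5a1, -0.0056 for Ndufa4, -0.0081 for Uqcrc2 and -0.084 for Atp5g3. Cox6b2 was 0.18 with limma-voom, 0.21 with the replicate block and 0.48 with the muscle covariate. Uqcrfs1 was 0.026 with limma-voom and 0.032 with the replicate block, and Atp5f1 0.019 and 0.020. With 3%-Axitinib replicate 2 alone Atp5a1 was -0.055, Cox6b2 0.29 and Atp5g3 -0.036. With 1 sample left out the values spanned -0.066 to 0.51 for mt-Co1, -0.36 to 0.31 for mt-Nd5, -0.19 to 0.033 for Sdha, -0.067 to 0.31 for Sdhd, -0.025 to 0.97 for Ndufa2, -0.037 to 2.13 for Cox4i2, -0.089 to 0.60 for Ndufa4, -0.70 to 1.13 for Cox6b2, -0.17 to 0.32 for Uqcrfs1, -0.37 to 0.44 for Atp5f1 and -0.19 to 0.54 for Atp5g3. The cause was not tested.

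Depth limits mt-Nd3, mt-Nd4l and mt-Atp8, and shared sequence limits mt-Co2, mt-Co3 and mt-Atp6. With 3 samples a group and 1 control apart from the others, the size of the difference in nuclear members cannot be fixed closely.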
